A study of Homo sapiens with 12 samples.

Results

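The 34 genes described here belong to the amino acid response and to the unfolded protein response of the endoplasmic reticulum (ER), and were chosen by symbol. They form an ATF4 arm of 21 genes, made of regulators, amino acid and folate enzymes, amino acid transporters and other ATF4 targets. The ER arm has 13 genes, made of the sensors ERN1 and ATF6, the factor XBP1, and 10 genes called chaperones here. These 10 are chaperones and folding factors, with the ER degradation factors HERPUD1 and EDEM1 among them. Of the 34, 32 were measured, among 13702 genes measured in all: 20 of the ATF4 arm and 12 of the ER arm. HERPUD1 was not analysed here because no probe carries its symbol. VLDLR had 2 probes, and neither was detected on any array.

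The study asked how CD20, the surface antigen encoded by MS4A1, is regulated in lymphoma, and silenced genes in Raji, a human B cell line from a Burkitt lymphoma. All cells carried a short hairpin RNA (shRNA) delivered by infection, were kept in puromycin for 48 h, and gave total RNA on day 3. MBD2, a protein that binds methylated DNA, was targeted by hairpins A and C with 2 arrays each (shMBD2_A, shMBD2_C). CREM, a transcription factor of the cAMP response, was targeted by hairpins A and B with 1 array each (shCREM replicates 1 and 2), and MS4A1 by hairpins A, B and C with 1 array each (shMS4A1 replicates 1 to 3). Non-targeting control hairpins (shNTC) were on 3 arrays. Labels with a replicate number mark set 2, which holds the shMBD2 arrays and shNTC replicates 1 and 2. The labels without one mark set 1, which holds the shCREM and shMS4A1 arrays and shNTC replicate 3. Every knockdown was compared with the control of its own set, so shMBD2 had 2 control arrays, while shMS4A1 and shCREM had 1. The labels do not say whether replicates are separate cultures. The p-values here reflect the spread among arrays, which may be technical. In set 1 each knockdown array carries a different hairpin, so n there counts hairpins and the spread includes differences between them.

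ATF4 is a transcription factor whose translation increases when the kinases that sense amino acid shortage or misfolded ER protein phosphorylate the initiation factor eIF2. It pairs with C/EBP proteins, often CEBPB or CEBPG, and turns on genes for the synthesis and uptake of amino acids, among them ASNS, PSAT1 and SLC7A11. The unfolded protein response also has the sensors ERN1 (IRE1) and ATF6, which with the factor XBP1 turn on ER chaperones such as HSPA5 (BiP) and HSP90B1 (GRP94). B cells use this system when they become antibody-secreting plasma cells.

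Levels are log2 normalized intensities, and differences between groups are on the log2 scale, so 1 is a 2-fold change. A probe's level was not set against that of another gene's probe, because probes differ in brightness. Sums and medians of marker levels are the exception, and the brightest probes weigh most in a sum. MBD2 had levels of 5.78 and 5.5 on the shMBD2_A arrays and 5.92 and 5.38 on the shMBD2_C arrays, against 7.22 and 7.61 on shNTC replicates 1 and 2. MS4A1 had levels of 6.17 to 6.19 on the shMS4A1 arrays, against 7.35 on shNTC replicate 3. The CREM probe was detected on 4 of 12 arrays and does not check that knockdown. Between 18652 and 20483 probes were detected per array, and shNTC replicate 1 had the fewest, with the lowest raw median as well. Of 7 B cell markers with a probe, 6 were detected on all 12 arrays. None of 8 T and NK cell markers and none of 6 myeloid markers was, though CD14 was detected on 10 arrays and CD2 on 8. All 6 epithelial and fibroblast markers were detected on 2 or more arrays, and 1 of them, COL1A1, on all 12.

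Of the 32 measured genes, 28 were detected on every array. CHAC1, an enzyme that degrades glutathione, was detected on 7 arrays, and SLC7A11, the cystine transporter, on 4. ERN1 and STC2, a secreted glycoprotein, were detected on 2 arrays each, the fewest that the detection rule allows, and VLDLR on 0 lies outside it. Differences of these dim genes are therefore partly differences from background. The map of all 32 genes shows 2 arrays that stand out. shNTC replicate 1 held the highest level of the 6 arrays of set 2 for 20 of the 32 genes, against 23.7% of all genes. shCREM replicate 2 held the highest of set 1 for 21, against 18.3%.

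**Figure D1:**
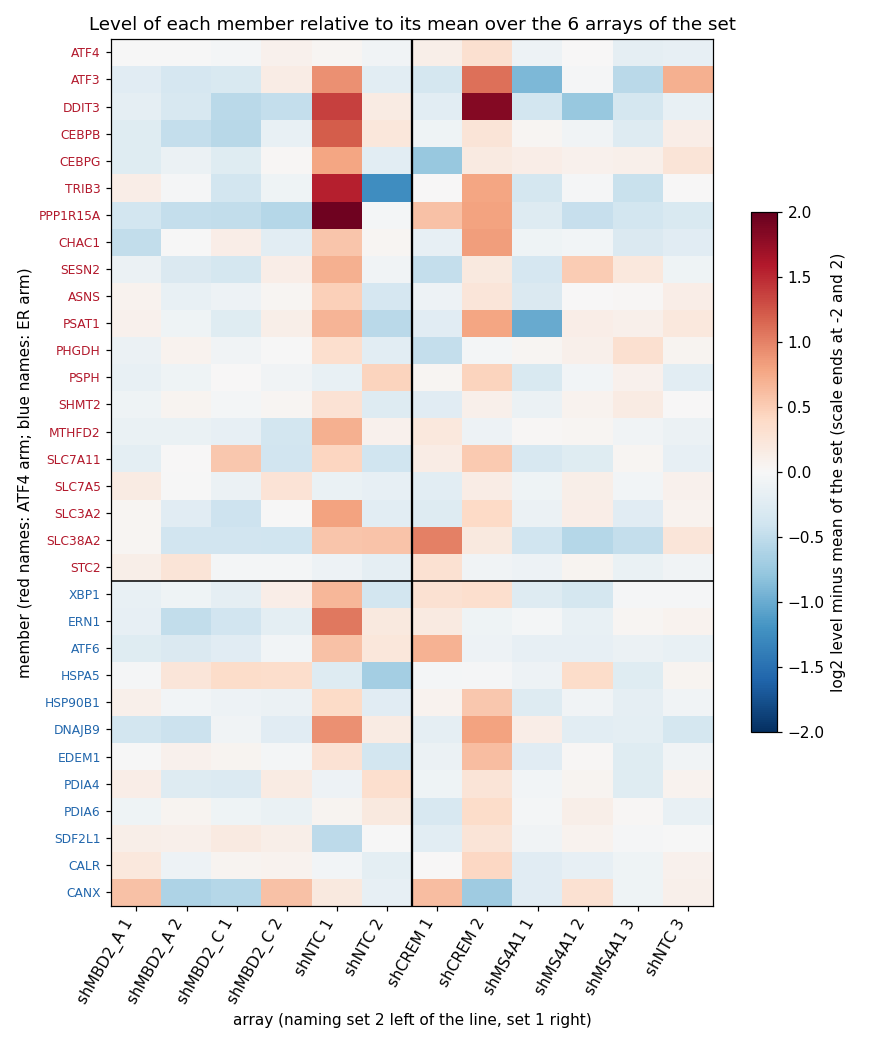
Log2 level of each of the 32 measured genes (rows, ATF4 arm above the line) on each of the 12 arrays (columns, set 2 left of the line, set 1 right), minus the gene's mean over the 6 arrays of its set. Red is above that mean and blue below. The columns of shNTC replicate 1 and shCREM replicate 2 are the reddest, with the highest level of their set for 20 and 21 genes.

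Promoters of 31 of the 34 genes were found in the RefSeq table (GRCh38.p14), 47 promoters in all. Each covers 250 bases before a gene's start and 50 after. The C/EBP-ATF response element, at which ATF4 and its C/EBP partners bind, was searched as TGATGNAA on both strands. It was present in 5 of 18 genes of the ATF4 arm (ASNS, ATF3, CEBPG, CHAC1 and SLC3A2) and 1 of 13 of the ER arm (HERPUD1), against 3.62% of all 35116 promoters and 4.46% of all genes in the table. The ER stress response element, bound by ATF6 with a partner, was searched as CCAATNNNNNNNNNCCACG. It was present in 0 of 18 genes of the ATF4 arm and 6 of 13 of the ER arm (CALR, CANX, HSP90B1, HSPA5, PDIA6 and XBP1), against 0.0769% of all promoters and 0.0916% of genes. The match of SLC3A2 lies after its start, so 4 of 18 genes of the ATF4 arm had one before it. These matches are a description and not a measurement of binding.

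Windows around 10 of these matches are shown so that the elements of either arm can be read in their context, and were chosen after the matches had been seen. Those of SLC3A2, HERPUD1 and CANX are not printed. Each runs 5′ to 3′ on the gene's strand, with the element in capitals and 12 bases on each side.
ASNS, chr7:97872457-97872488, minus strand, 68 bases upstream: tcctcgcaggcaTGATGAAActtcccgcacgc
ATF3, chr1:212565204-212565235, plus strand, 191 bases upstream: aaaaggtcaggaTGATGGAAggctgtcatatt
CEBPG, chr19:33374059-33374090, plus strand, 42 bases upstream: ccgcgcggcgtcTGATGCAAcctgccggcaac
CHAC1, chr15:40953250-40953281, plus strand, 209 bases upstream: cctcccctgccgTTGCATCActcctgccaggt
HSPA5, chr9:125241379-125241421, minus strand, 66 bases upstream: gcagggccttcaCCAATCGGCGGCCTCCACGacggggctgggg
HSP90B1, chr12:103930204-103930246, plus strand, 194 bases upstream: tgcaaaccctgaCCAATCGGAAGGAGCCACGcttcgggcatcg
HSP90B1, chr12:103930309-103930351, plus strand, 89 bases upstream: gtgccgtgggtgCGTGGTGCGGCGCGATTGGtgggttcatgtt
CALR, chr19:12938372-12938414, plus strand, 225 bases upstream: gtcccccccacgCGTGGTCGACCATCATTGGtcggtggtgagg
PDIA6, chr2:10812841-10812883, minus strand, 86 bases upstream: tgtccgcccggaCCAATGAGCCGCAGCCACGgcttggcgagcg
XBP1, chr22:28800591-28800633, minus strand, 52 bases upstream: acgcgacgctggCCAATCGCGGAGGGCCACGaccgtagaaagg
The matches of CHAC1 and CALR and the 2nd of HSP90B1 lie on the strand opposite to the gene, so their capitals show the element reversed and complemented. Numbers of bases are counted from the element's first base on the gene's strand to the gene's start.

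A further 4 elements were searched after these matches had been seen. The ER stress response element II, which is ATTGG and CCACG with 1 base between them, stood in 2 of 13 ER arm genes (HERPUD1 and SDF2L1) and 0 of 18 of the ATF4 arm, against 0.0541% of promoters and 0.0696% of genes. The cAMP response element, TGACGTCA, stood in 1 of 18 ATF4 arm genes, PPP1R15A, and 0 of 13 of the ER arm, against 1.85% and 2.25%. The unfolded protein response element, TGACGTGG, stood in none of either arm, against 0.729% and 0.927%. TGACG, the core that the cAMP and unfolded protein response elements share, stood in 7 of 18 and 7 of 13 genes, against 24.6% and 28.4%. The windows of SDF2L1, with the element on the opposite strand, and of PPP1R15A read as follows.
SDF2L1, chr22:21642102-21642136, plus strand, 188 bases upstream: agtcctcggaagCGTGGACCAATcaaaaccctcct
PPP1R15A, chr19:48872351-48872382, plus strand, 58 bases upstream: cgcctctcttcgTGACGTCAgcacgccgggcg
The bases before the start of ASNS and of HSPA5, the enzyme and the chaperone that most often stand for the arms, show these elements in their longer context. TGACG is not put in capitals there, and the HSPA5 bases also hold it in lower case. ASNS has a 2nd promoter in the table, which is not printed. It held TGACG on the opposite strand and 0 of the other elements searched.
ASNS, chr7:97872409-97872658, minus strand: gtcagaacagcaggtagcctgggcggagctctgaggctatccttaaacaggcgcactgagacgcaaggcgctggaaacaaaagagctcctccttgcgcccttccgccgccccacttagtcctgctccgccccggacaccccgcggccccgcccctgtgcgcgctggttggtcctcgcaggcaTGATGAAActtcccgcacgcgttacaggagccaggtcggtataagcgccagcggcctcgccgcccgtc
HSPA5, chr9:125241344-125241593, minus strand: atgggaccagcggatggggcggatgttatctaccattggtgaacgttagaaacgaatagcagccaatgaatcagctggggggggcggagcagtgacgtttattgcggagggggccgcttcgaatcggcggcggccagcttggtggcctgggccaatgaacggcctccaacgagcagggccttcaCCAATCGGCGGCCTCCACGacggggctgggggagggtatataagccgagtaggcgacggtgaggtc

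With shMBD2, CEBPB, PPP1R15A and SLC38A2 fell against shNTC, and none of the 32 genes rose. Over all genes, limma's test at an adjusted p of 0.05 called 2.86% (1.31% lower and 1.55% higher). CEBPB, the bZIP partner of ATF4, was 2.11-fold lower, and PPP1R15A (GADD34), which directs a phosphatase to eIF2, was 2.71-fold lower. SLC38A2, a transporter of neutral amino acids, was 1.79-fold lower. ERN1 also had an adjusted p under 0.05, which makes 4 of 32, but the 2 arrays that detected it are shNTC replicates 1 and 2. It passed the detection filter only through the group in which it is higher, so its values are given as a description. None of 9 chaperones and none of 6 amino acid and folate enzymes passed the test. Fewer cells with a transcript and less transcript per cell cannot be told apart in such bulk RNA.

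CEBPB had levels of 9.56 and 9.33 on the shMBD2_A arrays and 9.25 and 9.66 on the shMBD2_C arrays, against 11.02 and 10.03 on shNTC replicates 1 and 2. All 4 knockdown arrays lay below both controls, and the difference was -1.08 ± 0.22 (SE, n = 4 and 2, limma adjusted p = 0.0164). PPP1R15A had levels of 8.13, 8.03, 8.01 and 7.93 with shMBD2, against 10.45 and 8.47 with shNTC, a difference of -1.44 ± 0.34 (adjusted p = 0.0343). The knockdown arrays were close together, while the controls were 1.98 apart. SLC38A2 had levels of 8.19, 7.77, 7.76 and 7.75 with shMBD2, against 8.70 and 8.71 with shNTC, a difference of -0.84 ± 0.21 (adjusted p = 0.0439). Of the 4 genes it was the only one whose controls were level with each other. ERN1 had levels of 4.67, 4.35, 4.46 and 4.64 with shMBD2, against 5.89 and 5.03 with shNTC, a difference of -0.93 ± 0.23, or at least 1.84-fold lower with shMBD2, where no array detected it.

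**Figure D2:**
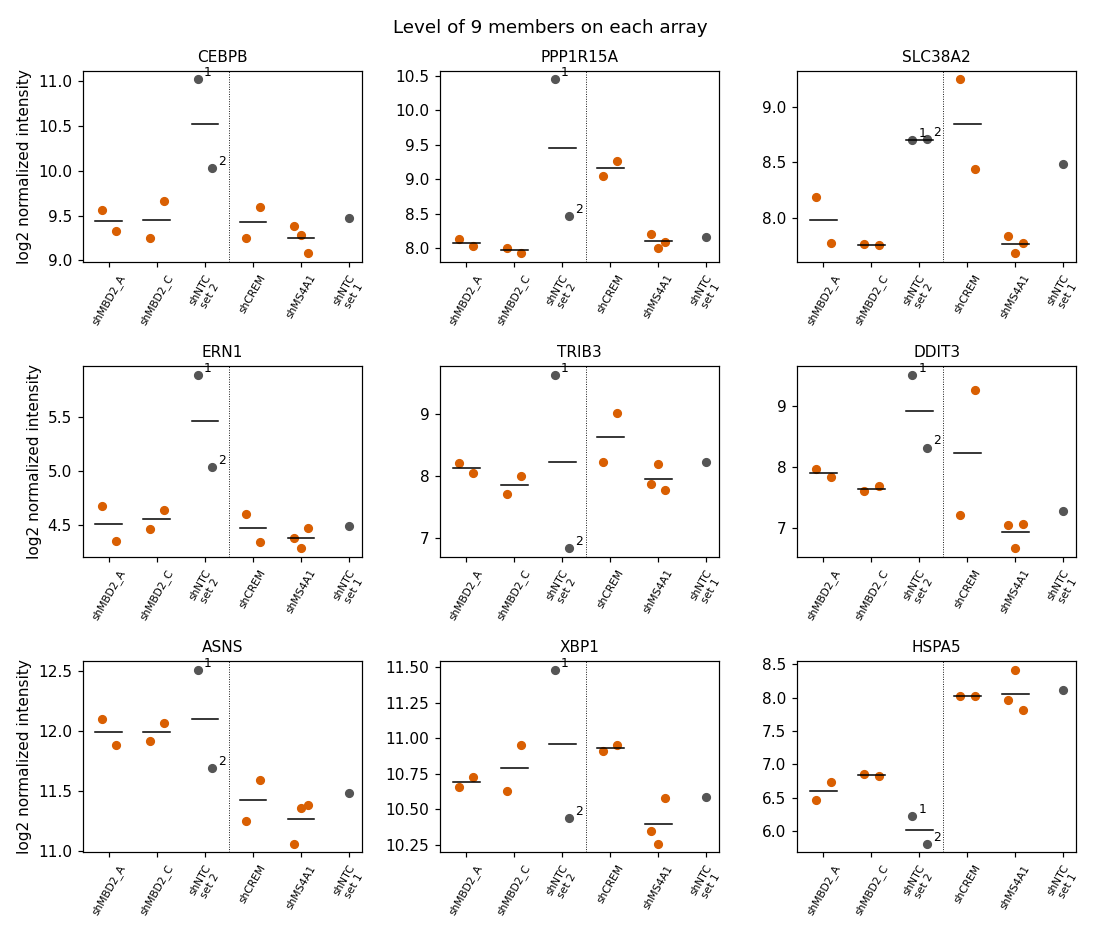
Log2 normalized intensity of 9 genes on each array, with knockdown arrays in orange, control arrays in grey and group means as bars; numbers mark shNTC replicates 1 and 2. Set 2 is left of the dotted line and set 1 right. CEBPB, PPP1R15A and SLC38A2 fell with shMBD2, ERN1 was detected on shNTC replicates 1 and 2 alone, and TRIB3 shows shNTC replicates 1 and 2 on opposite sides of the shMBD2 arrays.

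DDIT3 (CHOP), a pro-apoptotic transcription factor, had levels of 7.97, 7.84, 7.61 and 7.68 with shMBD2, against 9.52 and 8.32 with shNTC. Its groups did not overlap, but the difference of -1.15 ± 0.41 did not pass (adjusted p = 0.14). MTHFD2, a mitochondrial folate enzyme, came closest to the threshold, at -0.59 ± 0.16 (adjusted p = 0.0596). ATF4 itself had 12.88, 12.87, 12.85 and 12.97 with shMBD2, against 12.92 and 12.81 with shNTC, a difference of 0.03 ± 0.10 (adjusted p = 0.915). ATF4 is controlled largely at translation, which arrays of RNA do not measure. Its 3 probes gave 0.03, 0.37 and -0.22.

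The other ATF4 targets that usually stand for the response gave small differences with wide or shared ranges. ASNS, which makes asparagine, had levels of 12.10, 11.88, 11.92 and 12.07 with shMBD2, against 12.51 and 11.69 with shNTC (difference -0.11 ± 0.18, adjusted p = 0.821). TRIB3, a pseudokinase induced by ATF4 and CHOP, had 8.22, 8.06, 7.72 and 8 with shMBD2, against 9.64 and 6.84 with shNTC (difference -0.24 ± 0.48, adjusted p = 0.859). The knockdown arrays of both genes lay between the control arrays. SLC7A11 differed by -0.03 ± 0.28 (adjusted p = 0.976) and was detected on 1 of 4 shMBD2 arrays and 1 of 2 shNTC arrays.

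In the ER arm, HSPA5 had levels of 6.46, 6.73, 6.85 and 6.83 with shMBD2, against 6.23 and 5.81 with shNTC. It was higher on every knockdown array, but the difference of 0.70 ± 0.22 did not pass (adjusted p = 0.098). SDF2L1, a partner of HSPA5 in the ER lumen, had 10.19, 10.17, 10.24 and 10.19 with shMBD2, against 9.55 and 10.06 with shNTC (difference 0.39 ± 0.16, adjusted p = 0.199). DNAJB9, a co-chaperone of HSPA5, went the other way at -0.81 ± 0.28, and ATF6 differed by -0.60 ± 0.20 (adjusted p = 0.123 each). XBP1 differed by -0.22 ± 0.21 (adjusted p = 0.65), HSP90B1 by -0.12 ± 0.16 (adjusted p = 0.772) and PDIA4, a disulfide isomerase, by -0.18 ± 0.24 (adjusted p = 0.766). Chaperones of the ER thus lay on both sides of 0, with a median of -0.02 over 9.

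Of the 20 ATF4 arm genes, 17 lay below 0, with a median difference of -0.34; of the 12 ER arm genes, 8 did, with a median of -0.15. The median over all genes was 0.04. The groups did not overlap for 8 of the 32 genes with shMBD2 lower and for 4 with shMBD2 higher, against 12.1% and 16.7% of all genes. The 8 were CEBPB, DDIT3, PPP1R15A, SLC38A2, MTHFD2, ERN1, ATF6 and DNAJB9, and the 4 were HSPA5, SDF2L1, SLC7A5 and STC2. Of these, ERN1 was detected on the shNTC arrays alone, and STC2 on 1 shMBD2 array and no shNTC array, so their places are a description. At an unadjusted p under 0.05 there were 10 of the 32, ERN1 among them, against 2395 of all 13702 genes. With each hairpin alone, limma called 0 of the 32 genes for shMBD2_A (1.04% of all genes) and 0 for shMBD2_C (0.941%), with 9 and 10 at an unadjusted p under 0.05, against 1933 and 2006 of all genes. shMBD2_A and shMBD2_C differed from each other in no gene of the 32 and in none of all genes by limma's adjusted p, with 0 and 282 at an unadjusted p under 0.05. Between the hairpins, differences of the 32 genes ran from -0.25 (DNAJB9) to 0.29 (TRIB3).

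**Figure D3:**
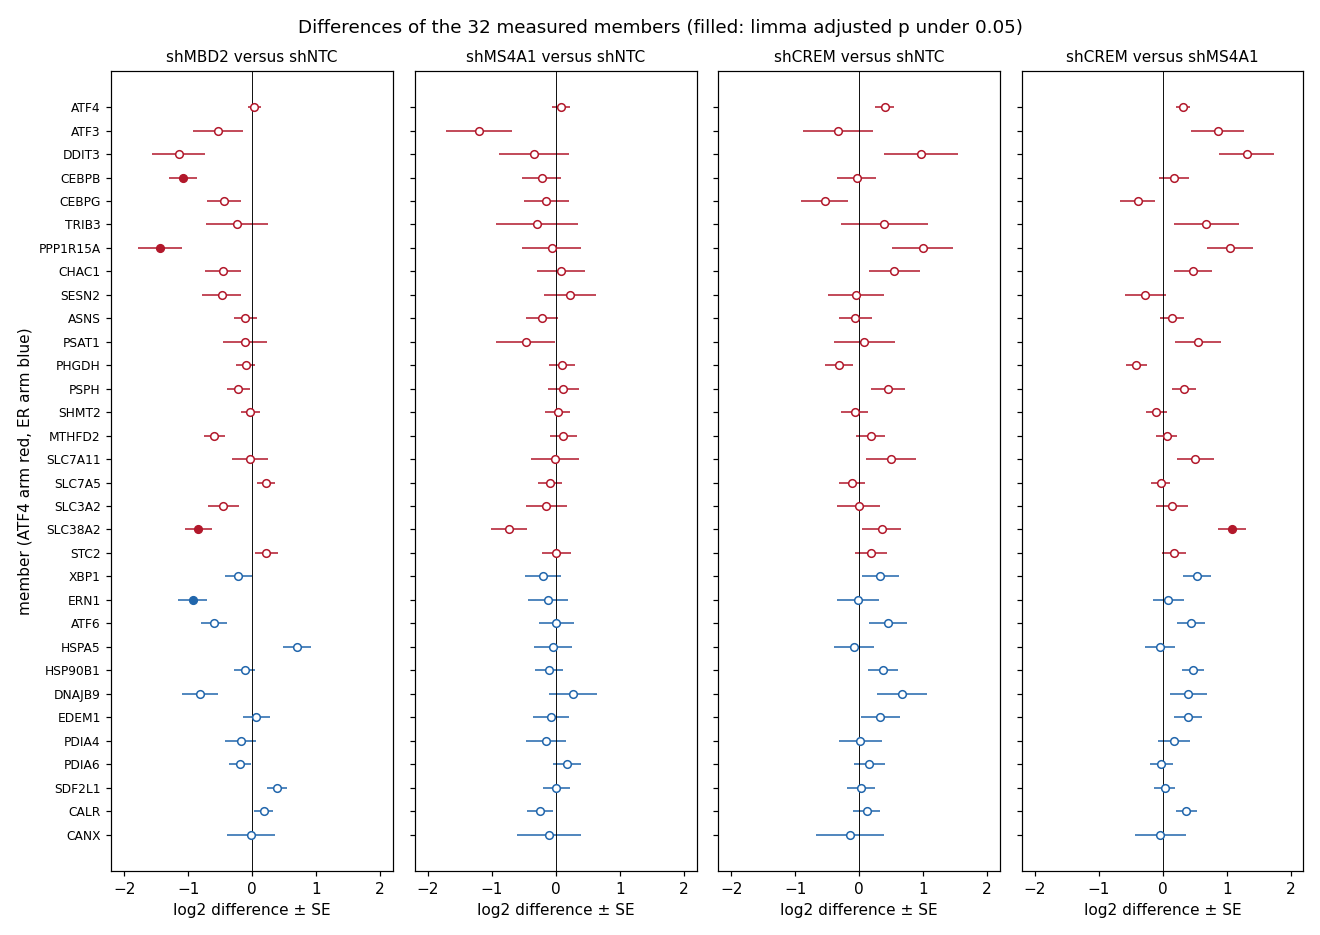
Log2 difference ± SE of each of the 32 measured genes (rows, ATF4 arm red, ER arm blue) in 4 comparisons from the limma model; filled points have an adjusted p under 0.05. With shMBD2, 4 genes are filled and lie left of 0, ERN1 among them, which was detected on shNTC arrays alone; SLC38A2 is the only other filled point, to the right of 0 in shCREM versus shMS4A1.

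The control arrays of set 2 differed from each other in these genes more than over all genes. Between shNTC replicate 1 and shNTC replicate 2, where 1 array against 1 array allows no test, 8 of the 32 genes were over 2-fold higher on replicate 1 and 0 were over 2-fold lower, against 1.93% and 1.77% of all genes. The 9 regulators were all higher on replicate 1, with a median difference of 1.01. TRIB3 had 9.64 on replicate 1 and 6.84 on replicate 2, and this difference of 2.80 was the largest of any of the 13702 genes. PPP1R15A followed among the 32 genes at 1.98, then PSAT1, an enzyme of serine synthesis, at 1.22, and DDIT3 at 1.20. XBP1, at 1.04, was the only ER arm gene past 2-fold.

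The ATF4 arm lay farther from 0 than the ER arm in this control difference, which was not tested. In the ATF4 arm 18 of 20 genes were above 0, with a median of 0.80, and in the ER arm 9 of 12, with a median of 0.39. The 9 chaperones had a median of 0.36, from -0.51 for SDF2L1 to 0.75 for DNAJB9, and all genes a median of -0.02. PSPH, the last enzyme of serine synthesis, was the ATF4 arm gene farthest the other way, at -0.58, and its 2nd probe gave -0.54. Within set 2, replicate 1 held the highest level for 14 of 20 genes of the ATF4 arm and 6 of 12 of the ER arm. It was also the array with the fewest detected probes, and the part of RNA quality or array quality in its levels was not tested.

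Genes outside the 34 differed between these arrays as well. All 11 measured aminoacyl-tRNA synthetases, which charge transfer RNAs and are ATF4 targets, were higher on shNTC replicate 1 than on replicate 2, with a median of 0.72. Of 25 further ATF4 and CHOP targets, 6 were over 2-fold higher and 0 over 2-fold lower, with a median of 0.46, against 1.93% and 1.77% of all genes. Among these 6 are the synthetase WARS1, which both lists hold, and GDF15, which was detected on 2 of 12 arrays. Further targets of XBP1 and ATF6 had a median of 0.20 over 29 genes, and the kinases, initiation factors and proteases upstream a median of 0.12 over 14. Cytosolic heat shock genes had a median of 0.02 over 12, and targets of NRF2, the oxidative stress factor that also drives SLC7A11, 0.05 over 6. Medians of cell type markers were 0.47 over 6 plasma cell markers, 0.30 over 6 B cell markers, 0.32 over 5 T and NK cell markers and -0.12 over 4 myeloid markers. None of the T and NK cell or myeloid markers was detected on every array, so their differences are partly differences from background. These are descriptions of 2 arrays, and the part of the markers in the difference was not tested.

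**Figure D4:**
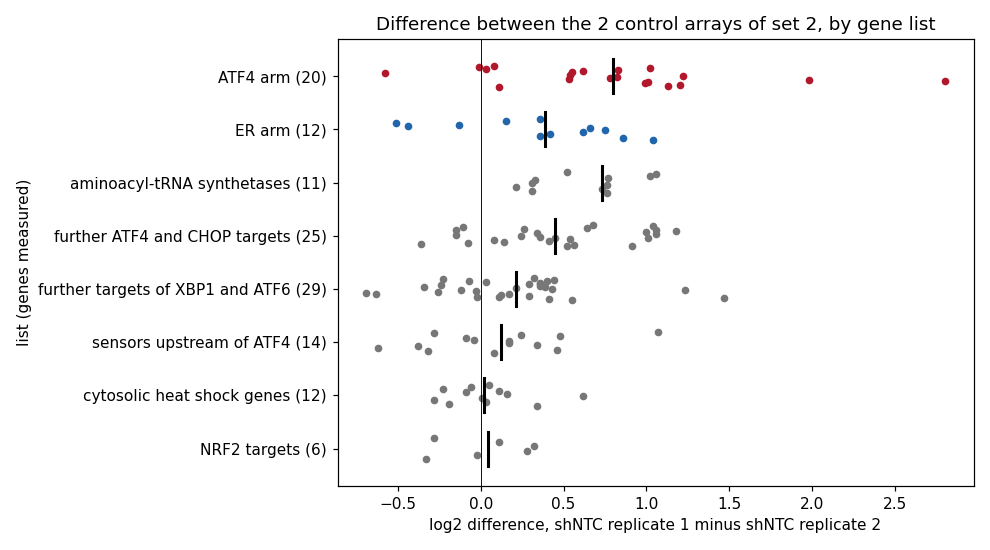
Log2 level on shNTC replicate 1 minus that on shNTC replicate 2 for each measured gene (points) of 8 lists (rows, number of genes in brackets); bars are medians. Of these 8 lists, the ATF4 arm and the aminoacyl-tRNA synthetases have the highest medians, 0.80 and 0.72, and the heat shock and NRF2 lists lie near 0.

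The shMBD2 calls depended on which control array was used. Without shNTC replicate 1, none of the 32 genes passed (0.241% of all genes, 0.0803% higher and 0.161% lower), and the medians were 0.06 for the ATF4 arm and 0.15 for the ER arm. Without shNTC replicate 2, 11 passed (7.75% of all genes), of which 10 were lower (3.59%) and SDF2L1 was higher (4.16%). PPP1R15A gave -0.45 without replicate 1 (adjusted p = 0.423) and -2.43 without replicate 2 (adjusted p = 3.2e-05). CEBPB gave -0.58 (adjusted p = 0.301) and -1.57 (adjusted p = 0.00129). ERN1 is 1 of the 10 lower genes, though it was detected on shNTC replicates 1 and 2 alone, so its values are a description. It gave -0.50 without replicate 1 and -1.36 without replicate 2. TRIB3 turned its direction, with 1.16 without replicate 1 (adjusted p = 0.112) and -1.64 without replicate 2 (adjusted p = 0.00354). SLC38A2 gave -0.85 without replicate 1, as large as with it, though with 1 control array the adjusted p was 0.245. HSPA5 stayed above 0 either way, at 0.91 against replicate 2 and 0.48 against replicate 1.

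**Figure D5:**
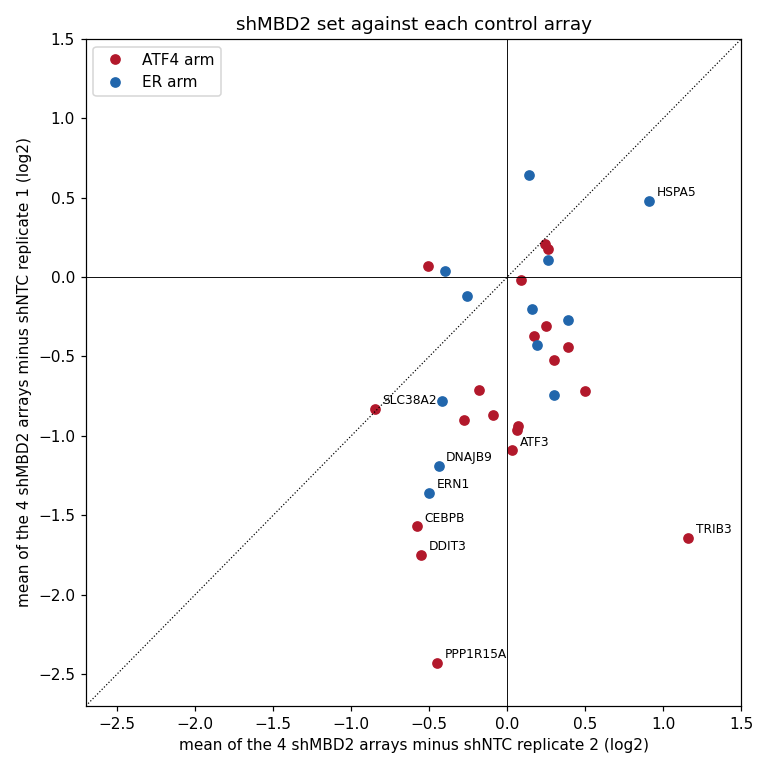
Mean log2 level of the 4 shMBD2 arrays minus shNTC replicate 2 (horizontal axis) and minus shNTC replicate 1 (vertical axis) for the 32 measured genes; the dotted line marks equal differences. Most genes lie below the line, TRIB3 has 1.16 across and -1.64 down, and SLC38A2 lies on the line.

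Among genes of the same pathways, 3 of 25 further ATF4 and CHOP targets fell with shMBD2 and none rose, against 1.31% lower and 1.55% higher over all genes. DDIT4 (REDD1), an inhibitor of mTORC1, had levels of 9.89, 10.59, 10 and 10.57 with shMBD2, against 12.67 and 12.11 with shNTC, a difference of -2.13 ± 0.26 (adjusted p = 0.000516). KLHL24, a ubiquitin ligase adaptor, had 7.42, 7.41, 7.26 and 7.17 with shMBD2, against 9.10 and 8.46 with shNTC (difference -1.47 ± 0.22, adjusted p = 0.00255). ERO1A, an ER oxidase, differed by -0.94 ± 0.23 (adjusted p = 0.0383). Without shNTC replicate 1, DDIT4 still passed at -1.85 (adjusted p = 0.0381), while KLHL24 at -1.15 and ERO1A at -0.81 did not (adjusted p = 0.0926 and 0.318). None of 11 aminoacyl-tRNA synthetases passed, with MARS1 nearest at -0.50 ± 0.15 (adjusted p = 0.0792). All 11 lay below 0, but their side rested on 1 control array: the mean of shMBD2 minus shNTC replicate 1 had a median of -0.58 with all 11 below 0, and minus replicate 2 a median of 0.06 with 8 of 11 above 0. None passed among 29 further XBP1 and ATF6 targets, 14 upstream sensors, 12 heat shock genes or 6 NRF2 targets. Nearest in these lists were SEC61A1 of the ER translocon at 0.48 ± 0.15, EIF2S1, the subunit of eIF2 that is phosphorylated, at 0.69 ± 0.21, HSPA1B at -0.61 ± 0.16 and GCLM of glutathione synthesis at 0.54 ± 0.18.

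Plasma cell markers were set beside the ER arm, since secretion needs chaperones. Their summed normalized intensity was 5401 to 5880 over the 4 shMBD2 arrays, against 4363 and 4441 on shNTC replicates 1 and 2, and none of 6 passed the test. Their median level was 5.49 to 5.91 over the shMBD2 arrays, against 6.03 and 5.11 on the shNTC arrays, so it did not stand apart as the sum did. MZB1 and JCHAIN are the brightest of the 6 and weigh most in the sum. Summed B cell markers were 28400 to 28969 with shMBD2, against 30956 and 27476 with shNTC, and of these CD79A fell and MS4A1 rose. Their part in the values of the ER arm was not tested.

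With shMS4A1, none of the 32 genes passed against the single shNTC array of set 1, where limma called 0.197% of all genes, and 2 had an unadjusted p under 0.05, against 845 of all genes. SLC38A2 had levels of 7.84, 7.68 and 7.77 with shMS4A1, against 8.49 with shNTC, a difference of -0.73 ± 0.28 (n = 3 and 1, adjusted p = 0.675). ATF3, a bZIP repressor induced by ATF4, had 4.84, 5.72 and 5.21 with shMS4A1, against 6.45 with shNTC (difference -1.20 ± 0.52, adjusted p = 0.765). Both genes were below the control on all 3 arrays, with wide errors because the control is a lone array. PSAT1 differed by -0.47 ± 0.46 and ASNS by -0.21 ± 0.25. A 2nd ASNS probe went the other way, at 9.10, 9.31 and 9.49 with shMS4A1, against 8.98 with shNTC. ATF4 differed by 0.08 ± 0.14, DDIT3 by -0.34 ± 0.54, TRIB3 by -0.29 ± 0.64 and SLC7A11 by -0.01 ± 0.37, the last detected on none of these 4 arrays. In the ER arm CALR, a lectin chaperone, differed by -0.25 ± 0.20, DNAJB9 by 0.27 ± 0.37, XBP1 by -0.20 ± 0.28 and PDIA6, a disulfide isomerase, by 0.18 ± 0.22. HSPA5 had 7.96, 8.42 and 7.81 with shMS4A1, against 8.11 with shNTC, while HSP90B1 differed by -0.10 ± 0.22 and PDIA4 by -0.15 ± 0.31. Medians were -0.08 for the ATF4 arm, -0.09 for the ER arm and 0 for all genes.

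With shCREM, none of the 32 genes passed against that array either, where limma called 0.0073% of all genes, and ATF4 was the only gene of the 32 with an unadjusted p under 0.05, against 1140 of all genes. ATF4 had levels of 12.95 and 13.15 with shCREM, against 12.66 with shNTC, a difference of 0.40 ± 0.15 (n = 2 and 1, adjusted p = 0.475). PPP1R15A had 9.05 and 9.27 with shCREM, against 8.17 with shNTC (difference 0.99 ± 0.48, adjusted p = 0.611). DDIT3 had 7.21 and 9.26 with shCREM, against 7.27 with shNTC (difference 0.97 ± 0.58, adjusted p = 0.708). The DDIT3 difference was carried by the array of hairpin B alone. PSPH differed by 0.45 ± 0.26, TRIB3 by 0.39 ± 0.68, SLC7A11 by 0.50 ± 0.39 and ASNS by -0.06 ± 0.26. The 2nd ASNS probe was higher with shCREM, at 9.70 and 9.77, against 8.98 with shNTC. SLC7A11 was detected on both shCREM arrays but not on that shNTC array, so its value is partly a difference from background. Among ER genes DNAJB9 differed by 0.67 ± 0.39, ATF6 by 0.45 ± 0.29, HSP90B1 by 0.37 ± 0.23 and XBP1 by 0.33 ± 0.29, while HSPA5 at -0.08 ± 0.31 and PDIA4 at 0.02 ± 0.33 were near 0. Medians were 0.13 for the ATF4 arm, 0.14 for the ER arm and 0 for all genes. These comparisons share shNTC replicate 3. The shMBD2 effect differed from the shMS4A1 effect in 0 of the 32 genes by limma (0.248% of all genes), with 4 at an unadjusted p under 0.05 against 1430 of all genes, and from the shCREM effect in 0 (0.598%), with 8 against 1806.

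The comparison of shCREM with shMS4A1 needs no control array, and in it 1 of the 32 genes passed, SLC38A2, which was 2.12-fold higher with shCREM. Limma called 6.12% of all genes there (2.87% higher and 3.25% lower). SLC38A2 had levels of 9.25 and 8.44 with shCREM, against 7.84, 7.68 and 7.77 with shMS4A1, a difference of 1.08 ± 0.22 (n = 2 and 3, adjusted p = 0.009). Against shNTC replicate 3, at 8.49, it differed by 0.35 ± 0.30 with shCREM and by -0.73 ± 0.28 with shMS4A1. The shCREM and shMS4A1 arrays did not overlap, and the array of shCREM hairpin A had the higher level. Without shCREM replicate 1 the difference was 0.68 and did not pass (adjusted p = 0.108).

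No other gene of the 32 passed in that comparison, and 8 of 32 had an unadjusted p under 0.05, against 2659 of all 13702 genes. DDIT3 had 7.21 and 9.26 with shCREM, against 7.05, 6.66 and 7.06 with shMS4A1 (difference 1.31 ± 0.43, adjusted p = 0.0868). PPP1R15A had 9.05 and 9.27 with shCREM, against 8.21, 8.01 and 8.10 with shMS4A1 (difference 1.05 ± 0.36, adjusted p = 0.103). Both shCREM arrays were above all 3 shMS4A1 arrays for each of these genes, narrowly so for DDIT3. ATF4 differed by 0.32 ± 0.11 (adjusted p = 0.105), TRIB3 by 0.68 ± 0.51, SLC7A11 by 0.51 ± 0.29 and ASNS by 0.15 ± 0.19. No shMS4A1 array detected SLC7A11, so its value is partly a difference from background. HSP90B1 had 11.51 and 11.98 with shCREM, against 11.18, 11.37 and 11.26 with shMS4A1 (difference 0.47 ± 0.17, adjusted p = 0.13). XBP1 had 10.91 and 10.95 with shCREM, against 10.35, 10.26 and 10.58 with shMS4A1 (difference 0.53 ± 0.22, adjusted p = 0.185). CALR differed by 0.37 ± 0.16, ATF6 by 0.44 ± 0.22, PDIA4 by 0.18 ± 0.25 and HSPA5 by -0.04 ± 0.23. Medians were 0.25 for the ATF4 arm and 0.27 for the ER arm, against 0 for all genes, and groups did not overlap for 10 genes with shCREM higher and 1 with shCREM lower (18.1% and 17.7% of all genes).

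In the other pathway lists, genes called higher with shCREM than with shMS4A1 were 1 of 25 further ATF4 and CHOP targets, 1 of 29 further XBP1 and ATF6 targets and 2 of 12 heat shock genes. The share over all genes was 2.87%, and no gene of these lists was called lower. No synthetase of 11, sensor of 14 or NRF2 target of 6 passed. The genes called were KLHL24 at 0.97 ± 0.23 (adjusted p = 0.0219), EDEM2, an ER mannosidase family member, at 0.72 ± 0.20 (adjusted p = 0.0468), and the heat shock proteins HSPA1B at 1.08 ± 0.17 (adjusted p = 0.0018) and HSPH1 at 0.79 ± 0.14 (adjusted p = 0.00482). Against shNTC replicate 3, EDEM2 differed by -0.05 with shCREM and -0.77 with shMS4A1, and KLHL24 by 0.43 and -0.55. HSPH1 differed by 0.23 and -0.56, and HSPA1B by 0.76 and -0.31. WARS1, a tRNA synthetase also induced by interferon, came close at 0.80 ± 0.23 (adjusted p = 0.0544). The plasma cell factor PRDM1 was higher with shCREM than with shMS4A1 by 1.33 ± 0.32 (adjusted p = 0.0225). Against shNTC replicate 3 it differed by 0.8 with shCREM and -0.54 with shMS4A1. The summed plasma cell markers were 3604 and 6653 with shCREM, against 5576 to 7172 with shMS4A1. The median level of these 6 markers ran the other way, at 7.02 and 5.99 with shCREM, against 5.51, 5.09 and 5.39 with shMS4A1, and 4 of 6 differences were above 0, with a median of 0.26. Among the B cell markers, CD22 was higher with shCREM than with shMS4A1. MS4A1 was higher too, but it is the gene silenced on the shMS4A1 arrays. The other 4 of the 6 B cell markers lay below 0, and the median of the 6 was -0.02. The part of the plasma cell and B cell markers in the values of both arms was not tested.

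The shCREM arrays differed from each other, and with 1 array per hairpin, hairpin and array cannot be told apart. On replicate 2 (hairpin B), 4 of the 32 genes were over 2-fold higher than on replicate 1 (hairpin A) and 1 was over 2-fold lower, against 2.37% and 2.19% of all genes, with 1 array each and no test. DDIT3 was 9.26 on replicate 2 and 7.21 on replicate 1, ATF3 6.85 and 5.39, PSAT1 10.35 and 9.33, and CHAC1 5.48 and 4.48. CHAC1 was not detected on replicate 1, so its value is partly a difference from background. CANX, a membrane lectin chaperone, was 7.82 on replicate 2 and 9.15 on replicate 1, and its 2nd probe 8.13 and 9. CANX also varied between arrays of the same hairpin, at 8.57 and 7.37 for shMBD2_A and 7.41 and 8.57 for shMBD2_C. All 9 regulators were higher on replicate 2, with a median of 0.78. SLC38A2 and ATF6 ran against this, at 8.44 and 8.32 on replicate 2 and 9.25 and 9.11 on replicate 1. Replicate 1 was the highest array of set 1 for 6 of the 32 genes, against 22.5% of all genes, SLC38A2 and ATF6 among them.

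The sets of arrays were compared through their control arrays, of which set 1 has 1, so its spread is taken from the other groups and no p is given for a single gene. Between the shNTC arrays of set 2 and that of set 1, HSPA5 had 6.23 and 5.81 in set 2, against 8.11 in set 1, a difference of -2.09 ± 0.31 (n = 2 and 1). SDF2L1 differed by -1.26 ± 0.22, CALR by -1 ± 0.21 and SLC7A5, the light chain of the leucine transporter, by -0.77 ± 0.20. DNAJB9 was higher in set 2 by 1.53 ± 0.39 and MTHFD2 by 1.08 ± 0.23. Limma called 6.34% of all genes in this contrast (2.53% higher and 3.82% lower), and these 6 of the 32. Of 9 chaperones, 3 were called lower and 1 higher. Other lists had calls too: 5 of 12 heat shock genes and 6 of 29 further XBP1 and ATF6 targets were lower, and 3 of 25 further ATF4 and CHOP targets were higher. HSPA5 lay between 7.81 and 8.42 on all 6 arrays of set 1, and between 5.81 and 6.85 on all 6 of set 2. The sets hold different knockdowns and differ in raw brightness, with array medians of 76.92 to 86.81 in set 2 and 99.15 to 104.87 in set 1. A level of these genes therefore cannot be set across the sets, and how the sets were made cannot be told apart from it.

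Over the knockdowns against their own controls, the ATF4 targets named for the contrast with ER chaperones gave no call in any comparison. ASNS differed by -0.11, -0.21 and -0.06 with shMBD2, shMS4A1 and shCREM, TRIB3 by -0.24, -0.29 and 0.39, and SLC7A11 by -0.03, -0.01 and 0.50. The 2nd, dimmer ASNS probe gave -0.28 with shMBD2, but was above shNTC replicate 3 on every shMS4A1 and shCREM array. HSPA5 differed by 0.70, -0.04 and -0.08, HSP90B1 by -0.12, -0.10 and 0.37, and PDIA4 by -0.18, -0.15 and 0.02. Apart from ERN1 and the contrast between sets, the genes called were the regulators CEBPB and PPP1R15A, with shMBD2, and the transporter SLC38A2, with shMBD2 and with shCREM against shMS4A1.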

How the data were processed

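Raji RNA was labelled with biotin and hybridised to 12 Illumina BeadChip arrays. The deposited raw table gives, per the file headers, a signal and a detection p-value for each probe and array; this signal is linear intensity without background subtraction. The deposited processed table holds intensities that the authors normalized between arrays, used as an alternative. Which software read the images and normalized them: not given in the sources used here. Probes are named differently in these tables, which were joined by their profiles over the 12 arrays; the largest distance to a match was 0.0566 and the smallest to any other probe 0.076. Of 48107 probes, 30113 had 1 gene symbol, 8 several and 17986 none.

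Raw values were background-corrected and quantile-normalized with neqc (limma 3.58.1, R 4.3.3, offset 16, background inferred from detection p-values). Probes detected at p under 0.05 on 2 or more of 12 arrays were kept (27789, of which 18649 had 1 symbol), and each gene was represented by its brightest probe, which gave 13702 genes. limma's linear model with an intensity trend was fitted to all 12 arrays with the naming set as a block, two-sided, with Benjamini-Hochberg adjustment over all genes; the shMBD2 effect is the mean of its hairpins. Errors after ± are standard errors. A bound ("at least") sets the detected group's mean against the lowest signal of any detected probe or the gene's own, whichever was higher. The script was tested on simulated data. The number of arrays limits the precision.

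The genes, lists and tests were chosen with earlier results of these data known. For each knockdown against shNTC, and for shCREM against shMS4A1, differences were given for every gene of the 34 that passed and for the 4 with the smallest p in each arm. They were also given for ATF4, DDIT3, ASNS, TRIB3, SLC7A11, XBP1, HSPA5, HSP90B1 and PDIA4. Most carry a standard error, and only some an adjusted p. In other lists, values were given for genes that passed or came nearest, though not for all of these. Values outside this rule (single-array differences, the contrast between sets, values without 1 control array) were chosen after they were seen. Replicate numbers did not pair the arrays of set 2: deviations from group means correlated at -0.01, -0.03 and -0.09. Alternatives covered background correction, normalization, the authors' values, offset, detection filter, probe choice, trend, set block, arrays in the fit, the replicate block and leaving out each array.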

Additional observations from a re-analysis of the deposited data

Results flagged for a closer look

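SLC38A2, the transporter of neutral amino acids, differed between the knockdowns of set 1 by a test of the difference itself. Against shNTC replicate 3 it differed by 0.35 with shCREM and by -0.73 with shMS4A1. It was higher with shCREM than with shMS4A1 by 1.08 ± 0.22 on the log2 scale (limma adjusted p = 0.009), higher on 2 of 2 shCREM arrays than on any of 3 shMS4A1 arrays. It passed in 21 of 22 alternatives; without shCREM replicate 1 the difference was 0.68 (adjusted p = 0.108).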

How the results depend on the processing

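The 4 shMBD2 calls, ERN1 included though it was detected on shNTC arrays alone, held in part. The number of the 32 genes called was 2 with median centring, 1 with no detection filter, 0 without the intensity trend, 0 without the set block, 2 within the set alone and 3 with the replicate block, and ran from 0 to 11 when 1 array was left out (0 without shNTC replicate 1, 11 without shNTC replicate 2, 0 without shMBD2_A replicate 2 or shMBD2_C replicate 1, 7 without either shCREM array, 1 without any shMS4A1 array, shMBD2_A replicate 1 or shMBD2_C replicate 2). CEBPB passed in 18 of 23 alternatives, PPP1R15A in 11 of 23, SLC38A2 in 8 of 23 and ERN1 in 7 of 22. In shMS4A1 versus shNTC 1 gene, ATF3, passed without the set block. In shCREM versus shMS4A1 2 passed with median centring and 2 within the set, and 1 to 3 with 1 array left out. Genes called over the whole array ran from 33 to 1062 for shMBD2 (392 in the report), 1 to 235 for shMS4A1 (27), 0 to 240 for shCREM (1) and 330 to 1036 for shCREM versus shMS4A1 (839). With 1 array left out the shMBD2 medians ran from -0.78 to 0.06 for the ATF4 arm and from -0.23 to 0.15 for the ER arm. Without the set block, the shMS4A1 medians were -0.49 and 0.16 and the shCREM ATF4 arm median -0.26; such values set arrays of both sets side by side.

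Of 1580 values of named genes under alternatives, 53 changed sign, none of a difference called in the report and none itself called. With shMBD2, SLC7A11 gave 0.01 with raw quantile normalization, 0.04 with median centring, 0.01 with the authors' values and 0.03 without the set block, ATF4 -0.02 with median centring, and ASNS 0.10 without the set block. With shMS4A1, ATF4 gave -0.03 with median centring and ASNS 0.05 with the mean of probes; without the set block CALR gave 0.42, DNAJB9 -0.76, ATF4 -0.06, HSPA5 1.35, HSP90B1 0.35 and PDIA4 0.29. With shCREM, PDIA4 gave -0.18 with median centring and ASNS 0.35 with the mean of probes; without the set block DDIT3 gave -0.13, DNAJB9 -0.36 and HSPA5 1.31. For shMBD2_A versus shMBD2_C, median centring gave ATF6 0.03, ATF4 0.17, ASNS 0.15, XBP1 0.04 and PDIA4 0.16, and the mean of probes ATF4 0.16 and ASNS 0.05. The causes were not tested.

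With 1 array left out, ranges that crossed 0 were, for shMBD2, SLC7A11 -0.44 to 0.39, ASNS -0.52 to 0.30, TRIB3 -1.64 to 1.16, XBP1 -0.74 to 0.30, HSP90B1 -0.43 to 0.19, ATF4 -0.02 to 0.09 and PDIA4 -0.40 to 0.04. For shMS4A1 they were SLC7A11 -0.12 to 0.07 and HSPA5 -0.22 to 0.08. For shCREM they were ASNS -0.23 to 0.12, DDIT3 -0.06 to 1.99, TRIB3 0.00 to 0.77 and PDIA4 -0.15 to 0.20. For shCREM versus shMS4A1 they were ASNS -0.02 to 0.33 and HSPA5 -0.17 to 0.14. For shMBD2_A versus shMBD2_C they were CHAC1 -0.46 to 0.03, ASNS -0.11 to 0.11, PDIA4 -0.23 to 0.21, SLC7A11 -0.64 to 0.29, ATF4 -0.09 to 0.03 and XBP1 -0.26 to 0.07. The set 1 comparisons with shNTC could not be fitted without shNTC replicate 3. With the replicate block CEBPB, ERN1 and PPP1R15A passed and SLC38A2 did not. Where 1 control array remained, it was assumed to vary like the other groups. Dim genes near background (SLC7A11, CHAC1, STC2, ERN1) are limited by signal over background.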
